A study of Mus musculus with 18 samples.

Results

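A microRNA (miRNA) is cut from its precursor in steps that take place in different compartments of the cell. In the nucleus, the Microprocessor, made of the RNase Drosha and its RNA-binding partner Dgcr8, frees a hairpin from the primary transcript, and the exportin Xpo5 carries this hairpin to the cytoplasm together with Ran in its GTP-bound form. There the RNase Dicer1, with the double-stranded RNA-binding proteins Tarbp2 (TRBP) and Prkra (PACT), cuts the hairpin to the duplex that is loaded onto an Argonaute protein. The mRNAs of these 6 factors were followed here in pulldowns of a biotinylated miR-92b mimic. They were chosen as the loci whose symbols held Drosha, Dgcr8, Dicer1, Xpo5, Tarbp2 or Prkra, which gave 6 of the 52179 loci with a symbol, 1 for each gene.

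The 18 samples were pulldowns from Neuro2A (N2A) cells, a mouse neuroblastoma line, and formed 6 groups of 3. Cells were transfected for 6 h with a biotinylated miR-92b mimic or a biotinylated scrambled sequence (Scr), each at 25 nM, and lysed 48 h after transfection, while the control cells were not transfected. RNA held on streptavidin beads was collected from nuclear lysates (nuclear control, nuclear Scr, nuclear miR-92b) and from whole cell lysates (whole cell control, whole cell Scr, whole cell miR-92b), and was sequenced after oligo-dT selection of polyadenylated RNA. A value below is thus the share of a gene's mRNA among the RNA recovered in 1 pulldown, and not its level in the cell. The mimic was given from outside in 1 cell line, and the labels do not say whether the 3 samples of a group came from separate cultures, so p-values measure the spread between these samples, which may be technical.

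A miRNA recognises mRNAs mainly through its seed, bases 2 to 8, which is why the mature sequences are shown with the seed in capitals. The mimic was taken to be miR-92b-3p, the 22-base product at chr3:89227126-89227147 on the minus strand of GRCm38. The 6 mouse miRNAs below (RefSeq, GRCm38.p6) held the same seed.
mmu-miR-92b-3p: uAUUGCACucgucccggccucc
mmu-miR-92a-3p: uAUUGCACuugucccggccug
mmu-miR-25-3p: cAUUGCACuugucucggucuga
mmu-miR-32-5p: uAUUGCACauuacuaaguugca
mmu-miR-363-3p: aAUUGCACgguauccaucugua
mmu-miR-367-3p: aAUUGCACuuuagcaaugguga
The match to this seed in an mRNA reads GTGCAAT and was searched on the sense strand of the longest protein-coding transcript of each gene (GENCODE M21). No match lay in the 3' UTR of the transcript of Drosha, Dgcr8, Dicer1, Xpo5, Tarbp2 or Prkra, while 1360 of the 20945 genes with a 3' UTR (6.49%) held one there. In the coding sequence, 1123 of 21877 genes (5.13%) held a match, and Dicer1 was the only one of the 6 factors among them. Its match lay at bases 1839 to 1845 of the transcript and is shown in capitals with the bases around it.
Dicer1: gatattcccaaGTGCAATttggtggttcg
A match is a description of these letters and not evidence of binding.

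The values used are normalised read counts, in which the reads of each locus are scaled by the size factor of the sample, and tests were made with limma on log2(normalised count + 1) over 15579 loci with a symbol and a mean of at least 10. All 6 factors passed this limit. Their recovered reads ran from 80 for Prkra in 1 sample to 5074 for Dgcr8 in another, in samples of 3752991 to 22920038 reads on loci with a symbol. The compartments differed in known markers. Among nuclear-retained RNAs, 3 of the 5 tested loci were higher in nuclear samples and 0 were lower, and Malat1 (log2 fold change 1.08 ± 0.16 SE) and Neat1 (1.06 ± 0.14) led. All 6 loci of abundant cytoplasmic mRNAs were lower, with Rplp0, a ribosomal protein gene, at -3.67 ± 0.27 and Eef1a1, a translation elongation factor gene, at -3.53 ± 0.24. The loci of Neat1, Eef1a1, Tnrc6a and Hspa8 also hold other, mostly small RNA genes, and are named here by these genes alone. The locus of Cse1l, which also holds Gm17096, and that of Ranbp1, which also holds Gm25777, are named likewise. Of 8 tested loci of the sympathetic and neuroblastoma lineage, Isl1 was higher in nuclear samples (0.44 ± 0.12) and Stmn2 was lower (-0.9996 ± 0.19). Their summed normalised count was 3222 to 4108 in nuclear and 3333 to 4896 in whole cell samples. The 7 markers of other cell types summed to 80.6 to 165 in nuclear and 89.1 to 251 in whole cell samples. Mbp was the highest of the tested ones, and Ptprc, Col1a1, Epcam and Aif1 had a median of 0 in both compartments. Whole cell miR-92b sample 3 stood apart from the other samples, with 13823 loci at a common depth where the others held 14729 to 20720, and with 4.51% of its reads on loci without a symbol where the others held 8.06% to 15.3%. Main results of the 6 factors that rest on it are given with and without it, while values of the other named genes are given only with it. Among nuclear samples, Scr samples 2 and 3 (14729 and 14958 loci) and control sample 3 (15732) also held few loci at that depth. The other nuclear samples held 19785 to 20720. Nuclear Scr and nuclear miR-92b samples thus differed in this measure, and the cause was not tested.

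**Figure D1:**
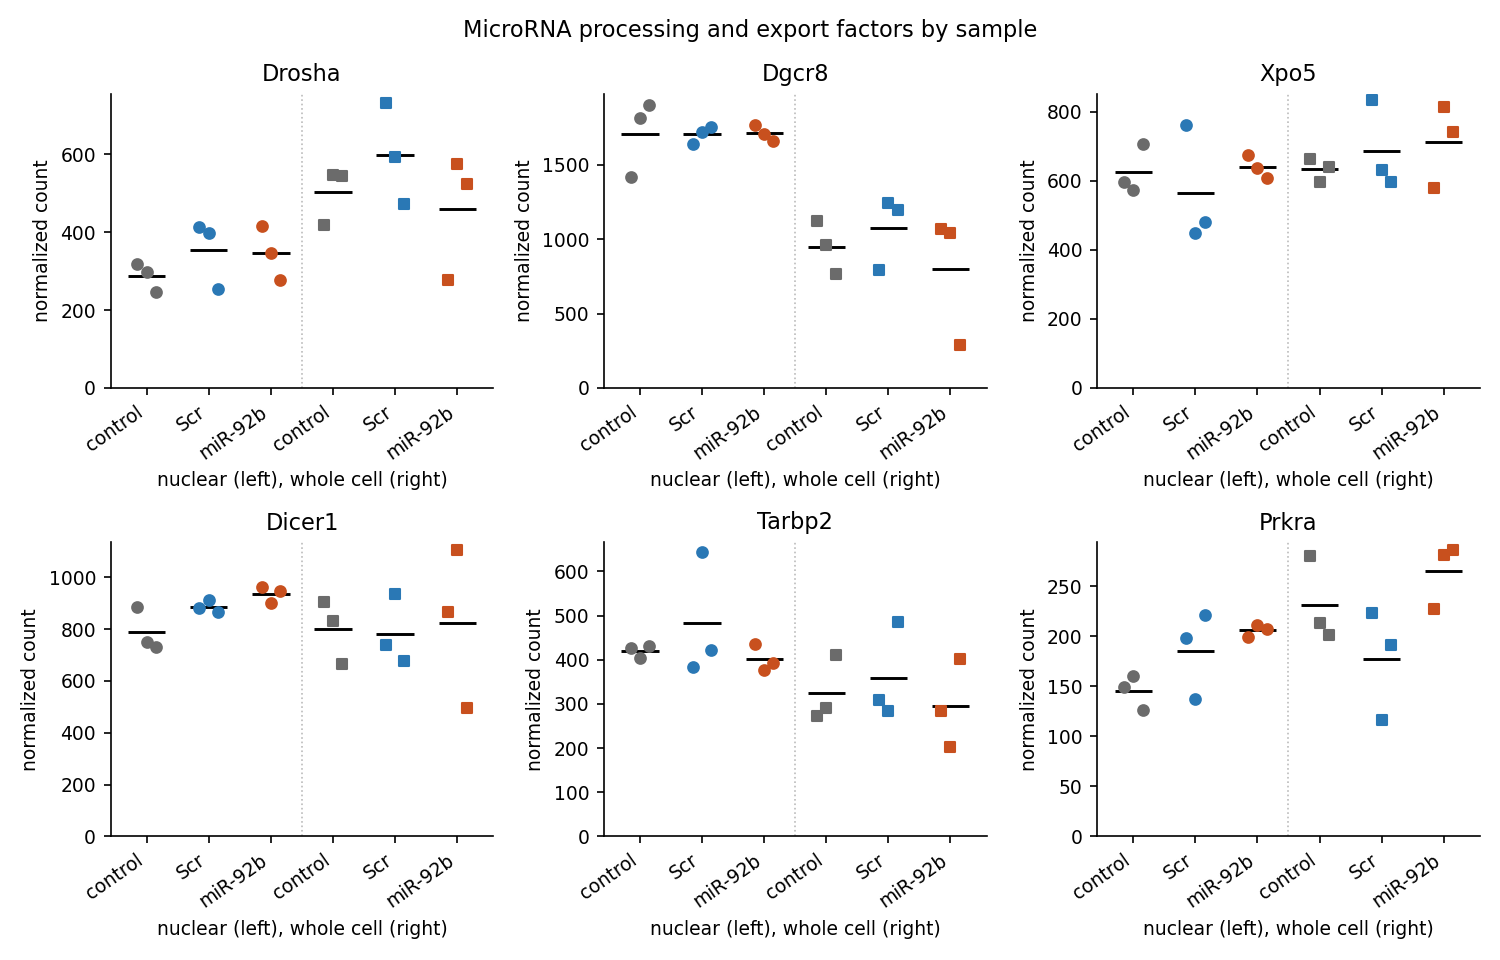
Normalised count (vertical axis, from 0) of the 6 factors in each of the 18 pulldown samples, by group along the horizontal axis, with nuclear samples as circles to the left of the dotted line and whole cell samples as squares to the right. Short lines are group means (n = 3). The 9 nuclear values of Dgcr8 (1418 to 1898) lie above its 9 whole cell values (287 to 1240), while for the other genes the compartments overlap.

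Nuclear and whole cell pulldowns were compared first, as the mean over the 3 treatments. Among the 6 factors, Dgcr8 and Tarbp2 mRNAs took a larger share of nuclear pulldowns and Drosha mRNA a smaller one, while Xpo5, Dicer1 and Prkra did not pass the test. Thus 3 of 6 factors were called, beside 31.0% of all tested loci (2377 higher, 2454 lower). The median log2 fold change was -0.0052 over the 6 factors and 0.14 over all tested loci. Within a compartment, the share of a gene's mRNA would be lower with fewer cells holding it as with less RNA per cell. Pulldowns from bulk lysates cannot tell these apart, and whether the compartments differed alike in all cells was not tested.

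Dgcr8 (ENSMUSG00000022718.12, minus strand of chromosome 16, 18253948 to 18289246) encodes the subunit that recognises the primary hairpin. In nuclear samples 1 to 3 its normalised count was 1418, 1811 and 1898 for control, 1642, 1721 and 1755 for Scr, and 1765, 1709 and 1659 for miR-92b. In whole cell samples it was 1122, 961 and 765 for control, 789.9, 1240 and 1195 for Scr, and 1065, 1042 and 287 for miR-92b. Every nuclear sample lay above every whole cell sample, which was so for 1 of the 6 factors and, in either direction, for 1140 of the 15579 tested loci (7.32%). The lowest value was that of the whole cell miR-92b sample that stood apart. The nuclear share was 1.94-fold higher (log2 fold change 0.96 ± 0.18 SE, 95% interval 0.58 to 1.34, limma adjusted p = 0.00034), more than that of 81.2% of all tested loci. Without the whole cell miR-92b sample 3 the log2 fold change was 0.75 (adjusted p = 3.7e-06).

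The locus of Dgcr8 also holds the miRNA gene Mir1306 and the small RNA gene Gm24572, and its counts cannot be split between them. Its listed region also covers the loci of Trmt2a and Ranbp1, which have counts of their own. Dgcr8 is known for hairpins in its own mRNA that the Microprocessor can cut, so the hairpin within its coding sequence is shown. Both small RNA genes lie in exon 2 of the 14 exons of the Dgcr8 transcript, 232 bases apart, Gm24572 in the 5' UTR and Mir1306 (chr16:18284239-18284317, minus strand, GRCm38) at bases 524 to 602 of the transcript, where the coding sequence starts at base 425. The RefSeq hairpin of Mir1306 is given with its mature arms in capitals.
Mir1306: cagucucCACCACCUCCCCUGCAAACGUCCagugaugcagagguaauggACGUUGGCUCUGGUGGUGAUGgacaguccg
The deposited values give no separate count for either hairpin, so whether the transcripts in either compartment were whole or cut was not tested.

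Drosha (ENSMUSG00000022191.16, plus strand of chromosome 15, 12824815 to 12935291) encodes the RNase III that cuts the primary transcript. Its nuclear values were 319, 298 and 247 for control, 414, 398 and 253 for Scr, and 417, 348 and 276 for miR-92b, in samples 1 to 3. Its whole cell values were 419, 548 and 543 for control, 732, 593 and 473 for Scr, and 278, 575 and 523 for miR-92b. Of the 9 whole cell samples, 8 lay above every nuclear sample, and miR-92b sample 1 was the exception. The nuclear share was 1.56-fold lower (log2 fold change -0.64 ± 0.16, 95% interval -0.97 to -0.30, limma adjusted p = 0.0042). The call was lost on deposited FPKM values (fragments scaled by transcript length and by the total of the sample), where the log2 fold change was -0.51 (adjusted p = 0.16). The locus also holds AC133189.1, which GENCODE M21 does not list, so what it adds to the Drosha count, and to any ratio with it, is not known. The length that FPKM and count together imply for Drosha varied 3.44-fold between samples, against a median of 2.30-fold over 9575 loci with a mean count of at least 50 and 1.13-fold for Dicer1.

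**Figure D2:**
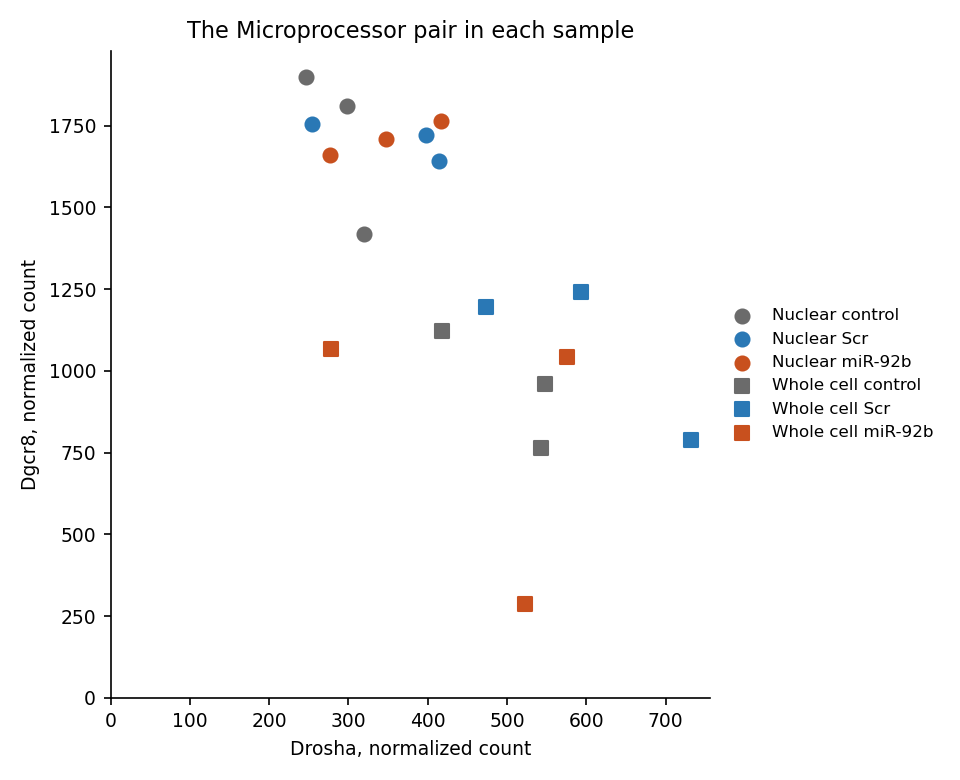
Normalised counts of Drosha (horizontal axis) and Dgcr8 (vertical axis) in each of the 18 samples, coloured by treatment, with nuclear samples as circles and whole cell samples as squares. Nuclear samples lie at the upper left, at Dgcr8 to Drosha ratios of 3.96 to 7.69, and whole cell samples at ratios of 0.549 to 3.83.

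As the mean over treatments, the normalised counts of the Microprocessor subunits thus moved in opposite directions between the compartments. The ratio of Dgcr8 to Drosha normalised counts within a sample, which does not depend on the size factor, was 3.96 to 7.69 in nuclear samples (median 4.91) and 0.549 to 3.83 in whole cell samples (median 1.81). It is built from the same counts as the results above, so it describes them and is no further support. By normalised counts the ranges did not overlap. The whole cell sample nearest to the nuclear ones was then miR-92b sample 1, and the lowest was miR-92b sample 3. By FPKM the ranges overlapped. Dgcr8 and Drosha stood at 30.4 and 17.5 FPKM in nuclear Scr sample 1. In whole cell miR-92b sample 1 they stood at 23.6 and 8.30, a higher ratio.

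Xpo5 (ENSMUSG00000067150.6, plus strand of chromosome 17, 46202782 to 46243598), the export receptor of hairpin precursors, was 448 to 760.2 in nuclear samples (median 607) and 579 to 833 in whole cell samples (median 641). The ranges overlapped widely, and the log2 fold change was -0.16 ± 0.12 (95% interval -0.41 to 0.098, limma adjusted p = 0.35). The listed region of Xpo5 also covers the loci of Mir693, Gm22474 and Polr1c, which have counts of their own.

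Dicer1 (ENSMUSG00000041415.10, minus strand of chromosome 12, 104687742 to 104751952), the RNase III of the cytoplasmic step, was 733 to 963 in nuclear samples (median 887) and 495 to 1105 in whole cell samples (median 832). Its log2 fold change was 0.15 ± 0.13 (95% interval -0.12 to 0.42, limma adjusted p = 0.41). The lowest and the highest of its 18 values were both whole cell miR-92b samples, 495 in sample 3 and 1105 in sample 2.

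The partners of Dicer1 lay on opposite sides of 0, and of these Tarbp2 was called. Tarbp2 (ENSMUSG00000023051.11, plus strand of chromosome 15, 102518192 to 102523676) had nuclear values of 426, 403 and 432 for control, 384, 645 and 422 for Scr, and 436, 377 and 392 for miR-92b. Its whole cell values were 272, 291 and 411 for control, 309, 285 and 485 for Scr, and 284, 203 and 402 for miR-92b. In whole cell samples, sample 3 was the highest of each treatment and lay within the nuclear range, while the other 6 whole cell samples lay below every nuclear sample. The nuclear share was 1.36-fold higher (log2 fold change 0.44 ± 0.16, 95% interval 0.11 to 0.77, limma adjusted p = 0.041). This call was near the threshold. With each of the 18 samples left out in turn it held in 5 cases (limma adjusted p = 0.010 to 0.087), and it was lost on FPKM values (log2 fold change 0.21, adjusted p = 0.49).

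Prkra (ENSMUSG00000002731.6, minus strand of chromosome 2, 76629898 to 76648015) was the least abundant of the 6 by count. Its nuclear values ran from 127 to 221 (median 198) and its whole cell values from 116 to 286 (median 223). Its log2 fold change was -0.31 ± 0.18 (95% interval -0.69 to 0.073, limma adjusted p = 0.21), and on FPKM values it was -0.72 and called (adjusted p = 0.029). The ratio of Tarbp2 to Prkra counts was 1.79 to 4.71 in nuclear samples (median 2.18) and 0.721 to 2.53 in whole cell samples (median 1.39), with overlap.

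**Figure D3:**
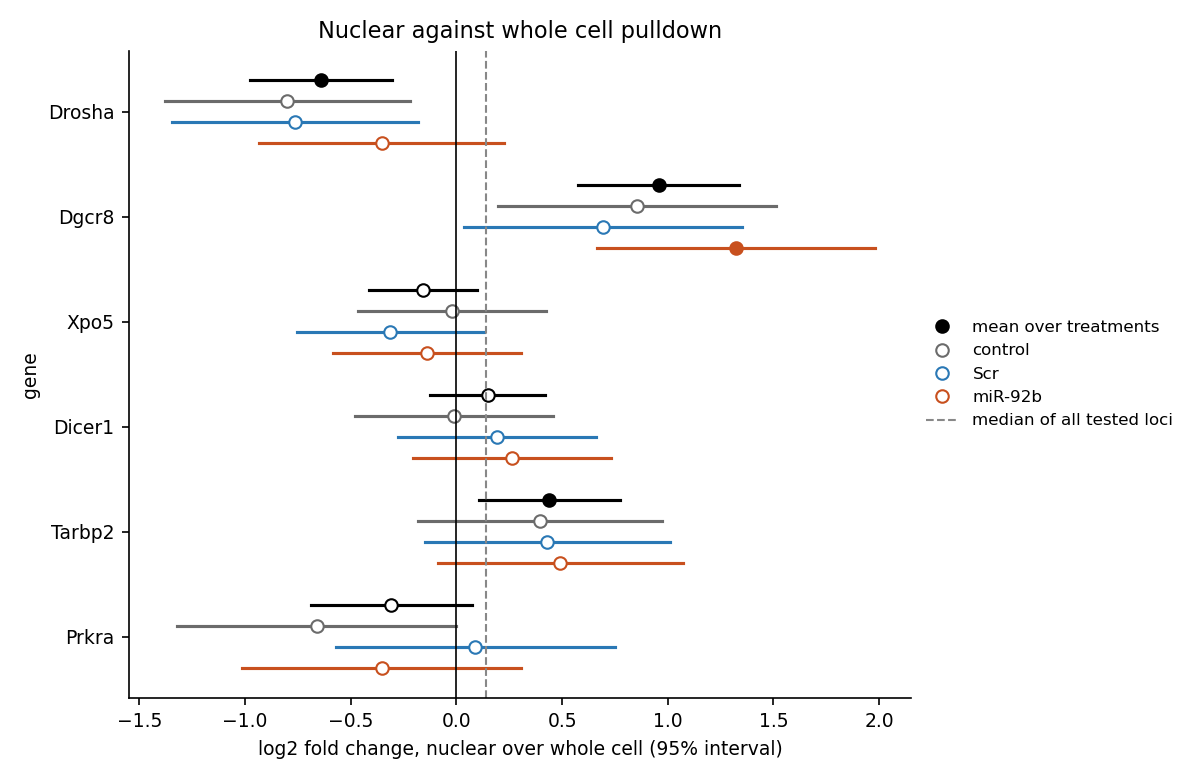
Log2 fold change of nuclear over whole cell samples (horizontal axis) for each of the 6 factors, as the mean over treatments (black) and within control, Scr and miR-92b samples, with 95% intervals from limma. Filled points passed an adjusted p of 0.05, and the dashed line is the median of all tested loci in the mean over treatments (0.14). Dgcr8 lies to the right and Drosha to the left of 0 in each treatment.

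Within single treatments, with 3 samples on each side, fewer calls were made. In control samples 0 of 6 factors were called by limma, beside 9.85% of all tested loci, although Drosha (log2 fold change -0.80 ± 0.28, adjusted p = 0.075) and Dgcr8 (0.85 ± 0.32, adjusted p = 0.095) had an unadjusted p below 0.05. These were 2 of the 6, beside 22.7% of all tested loci. DESeq2 called 1 factor there, Dgcr8, beside 18.1% of the 11346 loci to which it gave an adjusted p. The count by edgeR was 0, beside 9.13% of all tested loci. In Scr samples 0 of 6 were called by limma, edgeR or DESeq2, beside 5.17%, 3.72% and 8.28% of all loci. By limma, Drosha (-0.76 ± 0.28, adjusted p = 0.11) and Dgcr8 (0.69 ± 0.32, adjusted p = 0.20) were again the 2 with an unadjusted p below 0.05, beside 22.1% of all tested loci. In miR-92b samples 1 of 6 was called, beside 13.3% of all tested loci, or 6.26% (975 loci) without whole cell miR-92b sample 3. This was Dgcr8, with a log2 fold change of 1.32 ± 0.32 (95% interval 0.66 to 1.98, adjusted p = 0.0074). Without that sample the value was 0.70 (adjusted p = 0.026). The call was lost on FPKM values (0.86, limma adjusted p = 0.14) and when only the groups compared were fitted (1.32, adjusted p = 0.12). Drosha stood at -0.35 ± 0.28 in miR-92b samples (95% interval -0.93 to 0.23, limma adjusted p = 0.43).

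The compartment effect itself was then compared between treatments. For miR-92b less Scr, 0 of 6 factors were called (0.00642% of all tested loci), and likewise for miR-92b less control (0.0%) and for Scr less control (0.0%). No factor had an unadjusted p below 0.05 in these differences, beside 7.21%, 1.86% and 5.28% of all tested loci in the same order. Both edgeR and DESeq2 called 0 factors as well. Of all loci, edgeR called at most 0.00642%, and DESeq2 called 0.257%, 0.0193% and 0.0514%. For Dgcr8 the difference of miR-92b less Scr was 0.63 ± 0.45 (95% interval -0.30 to 1.56, limma adjusted p = 0.74), and it was 0.0042 without whole cell miR-92b sample 3. The larger Dgcr8 value in miR-92b samples is therefore not shown to differ from that in Scr samples.

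The comparison of miR-92b with Scr pulldowns asks which RNAs the mimic held beyond those a scrambled sequence held. In nuclear samples 0 of the 6 factors were called by limma (0.0% of all tested loci), and in whole cell samples 0 of 6 (0.00642%). At an unadjusted p below 0.05 there were also 0 in either compartment, beside 4.41% of all tested loci in nuclear and 9.72% in whole cell samples. Both edgeR and DESeq2 called 0 factors. Of all loci, edgeR called 0.0% in nuclear and 0.00642% in whole cell samples, and DESeq2 0.00643% and 1.13%. In nuclear samples the change with miR-92b on the log2 scale ran from -0.23 for Tarbp2 (95% interval -0.81 to 0.35) to 0.22 for Xpo5 (-0.22 to 0.67). Single Scr samples moved these values. Without nuclear Scr sample 1 Tarbp2 stood at -0.38 and Xpo5 at 0.46, and without nuclear Scr sample 2 they stood at -0.0060 and 0.080. Only the nuclear Scr samples with few loci remained without sample 1, and limma then called 49 of all tested loci. It called 0 without nuclear Scr sample 2 or 3. Dicer1, which holds the seed match in its coding sequence, stood at 0.080 (-0.39 to 0.55) in nuclear and at 0.0088 (-0.46 to 0.48) in whole cell samples. Its whole cell value was 0.34 without whole cell miR-92b sample 3 and -0.24 without whole cell miR-92b sample 2. An enrichment that lies within these intervals was not detectable with 3 samples per group.

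In whole cell samples the largest differences between the mimics were those of Dgcr8 and Prkra. Dgcr8 was 789.9, 1240 and 1195 in Scr and 1065, 1042 and 287 in miR-92b samples, with a log2 fold change of -0.62 ± 0.32 (95% interval -1.28 to 0.034, limma adjusted p = 0.53). This rested on miR-92b sample 3, without which the value was -0.00017. Prkra was 223, 116 and 191 in Scr and 227, 281 and 286 in miR-92b samples, so that the groups did not overlap. Such a separation was found for 1 of the 6 factors, beside 8.92% of all tested loci in whole cell samples, and for 0 of the 6 in nuclear samples, beside 10.1%. The log2 fold change of Prkra was 0.62 ± 0.32 (95% interval -0.038 to 1.28, limma adjusted p = 0.53), and it was 0.35 without Scr sample 2. Drosha stood at -0.43 ± 0.28 (limma adjusted p = 0.64), at -0.11 without miR-92b sample 1 and at -0.63 without miR-92b sample 2.

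**Figure D4:**
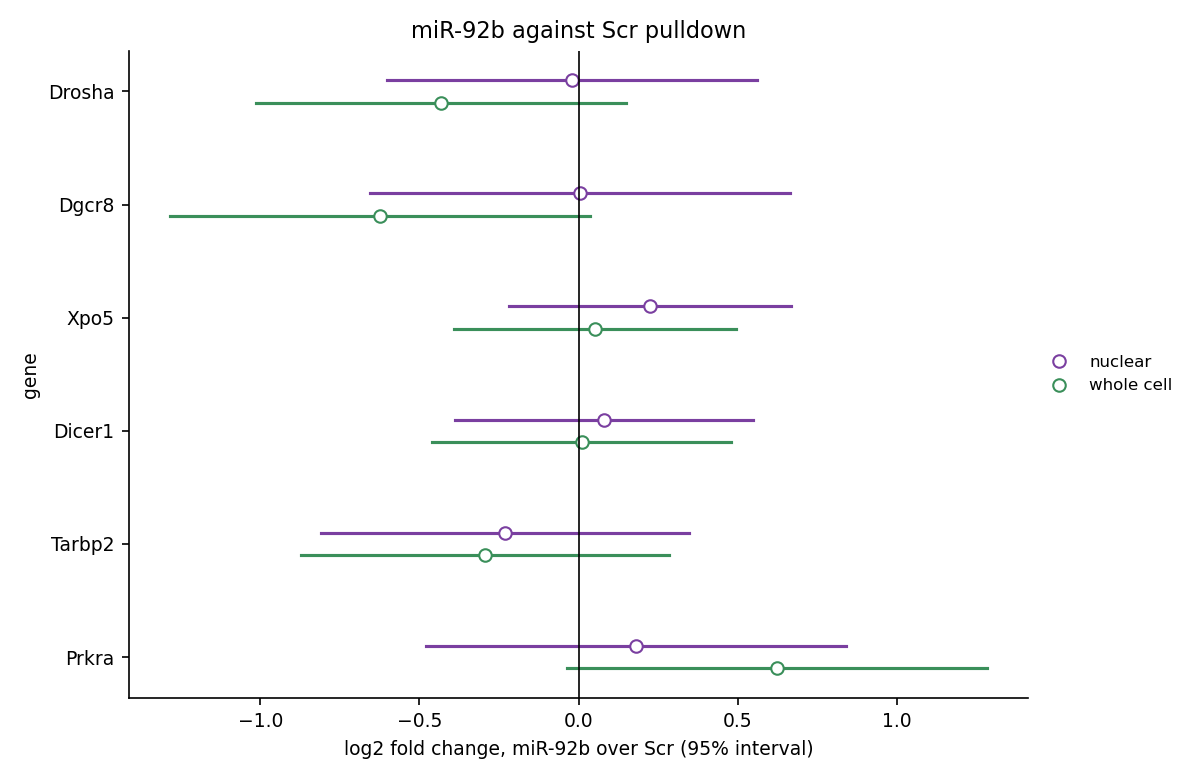
Log2 fold change between miR-92b and Scr pulldowns, positive where miR-92b is higher (horizontal axis) for each of the 6 factors in nuclear and whole cell samples, with 95% intervals from limma. All points are open because 0 of 6 factors passed an adjusted p of 0.05 in either compartment, and each interval includes 0.

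Against pulldowns from untransfected cells, which measure what the beads hold without a mimic, the picture was the same. For miR-92b against control 0 of 6 factors were called in nuclear samples (0.0% of all tested loci) and 0 of 6 in whole cell samples (0.00642%), and for Scr against control 0 of 6 in nuclear (0.0%) and 0 of 6 in whole cell samples (0.0%). At an unadjusted p below 0.05 limma gave 0 factors in each of these comparisons. Beside this stood 0.321% and 4.69% of all tested loci for miR-92b in nuclear and whole cell samples, and 5.88% and 5.09% for Scr. Both edgeR and DESeq2 called 0 factors. Of all loci, edgeR called at most 0.00642%. DESeq2 called 0.0% in both nuclear comparisons, and in whole cell samples 0.135% for miR-92b and 0.238% for Scr. The largest value among nuclear samples was that of Prkra for miR-92b over control, 0.51 ± 0.32 (95% interval -0.15 to 1.17, limma adjusted p = 0.9999), with counts of 149, 160 and 127 in control and of 199, 211 and 207 in miR-92b samples. The comparisons share the control and Scr samples, so they are not independent of each other.

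Levels of different genes can be set side by side only per length, for which the deposited FPKM values were used. By median FPKM over the 18 samples the order was Dgcr8 (27.6, range 8.74 to 51.8), Tarbp2 (23.7, 14.8 to 42.9), Xpo5 (15.9, 11.6 to 22.8), Drosha (13.5, 7.23 to 36.5), Prkra (11.5, 5.96 to 31.9) and Dicer1 (8.79, 5.50 to 11.8). Each gene's range overlapped that of its neighbour in this order. In FPKM the nuclear values of Dgcr8 (26.6 to 51.8) overlapped its whole cell values (8.74 to 30.3), unlike its normalised counts. The Drosha maximum was whole cell miR-92b sample 2, at 36.5 FPKM, although its normalised count there (575) was close to that of the whole cell control samples 2 and 3.

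The other genes of the pathway were taken from 7 lists of 63 tested loci in all. Of these, 14 were higher and 18 lower in nuclear than in whole cell samples (50.8% called), with a median log2 fold change of 0.099, beside 31.0% of all tested loci and 42.9% of the 10571 loci with a mean of at least 50. Fragments of 1 gene, Strbp, made up 10 of the 63 loci and 3 of the 14 higher ones. Without Strbp, 11 of 53 loci were higher and 18 lower (54.7% called), and the median turned to -0.048. In each comparison of treatments, and in each difference of the compartment effect, limma, edgeR and DESeq2 each called 0 of the 63. DESeq2 called at most 1.13% of all loci there. At an unadjusted p below 0.05 limma gave 0 to 8 of the 63, beside 0.321% to 9.72% of all tested loci. The 8 were in Scr less control, where the share of all tested loci was 5.28%.

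Cofactors of the Microprocessor lay in both directions, as called loci did in general (2377 higher, 2454 lower). Of 12 tested loci, 5 were higher and 3 lower in nuclear samples (median 0.18). The RNA-binding protein gene Hnrnpa2b1 (0.83 ± 0.13) was the highest, and Khsrp (-0.74 ± 0.11), which binds the terminal loop of some precursors, and Hnrnpa1 (-0.66 ± 0.11) were the lowest. The RNA helicase Ddx17 rose too (0.43 ± 0.09).

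On the export side, 0 of the 6 exportins other than Xpo5 were higher and 3 were lower (median -0.18), led by the locus that joins Xpo4 and Lats2 (-0.51 ± 0.18) and by Cse1l (-0.44 ± 0.15), the exportin of importin alpha. Of 7 loci of the Ran cycle, which gives nuclear transport its direction, 1 was higher and 3 were lower (median -0.35). Ran itself fell by 1.18 ± 0.13 on the log2 scale and Rangap1, its GTPase-activating protein, by 0.82 ± 0.17, while the nuclear pore protein gene Ranbp2 rose by 0.41 ± 0.10. Ranbp1, in a locus whose listed region is shared with Dgcr8, fell by 0.41 ± 0.12.

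Among 8 genes whose products modify precursors, 2 were higher and 1 was lower (median 0.22). The paralogues Lin28b (0.77 ± 0.16) and Lin28a (-1.61 ± 0.22), which both bind let-7 precursors, lay on opposite sides. Lin28b counts were 2337 to 2726 in nuclear and 587 to 2275 in whole cell samples, and Lin28a counts were 97.8 to 320.3 and 344 to 1210. Adar, which edits double-stranded RNA, was higher by 0.31 ± 0.12. Of the other double-stranded RNA-binding proteins, 3 of 16 tested loci were higher and 1 was lower (median 0.68). All 3 higher ones, at up to 2.81 ± 0.86 and 2.42 ± 0.91, were fragments of Strbp, which the authors' assembly split into 15 loci of which 10 were tested. These 3 fragments had mean normalised counts of 15.3 to 88.7, while the Strbp locus with the most reads (mean 1198) stood at -0.10 ± 0.12 (limma adjusted p = 0.53). Stau2, which takes part in RNA transport, was lower (-0.78 ± 0.23).

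Downstream of Dicer1, 3 of the 7 Argonaute and TNRC6 loci were higher and 1 was lower (median 0.32). Ago3 was higher by 0.50 ± 0.16 and Tnrc6a by 0.39 ± 0.13, and the locus that joins Ago2 with Ptk2 was lower (-0.60 ± 0.09). Of the 7 genes of RISC loading and strand removal, 0 were higher and 6 lower (median -0.95). The chaperone genes Hspa8 (-2.91 ± 0.21) and Hsp90ab1 (-2.69 ± 0.16) were lowest and lay in the range of the cytoplasmic markers.

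**Figure D5:**
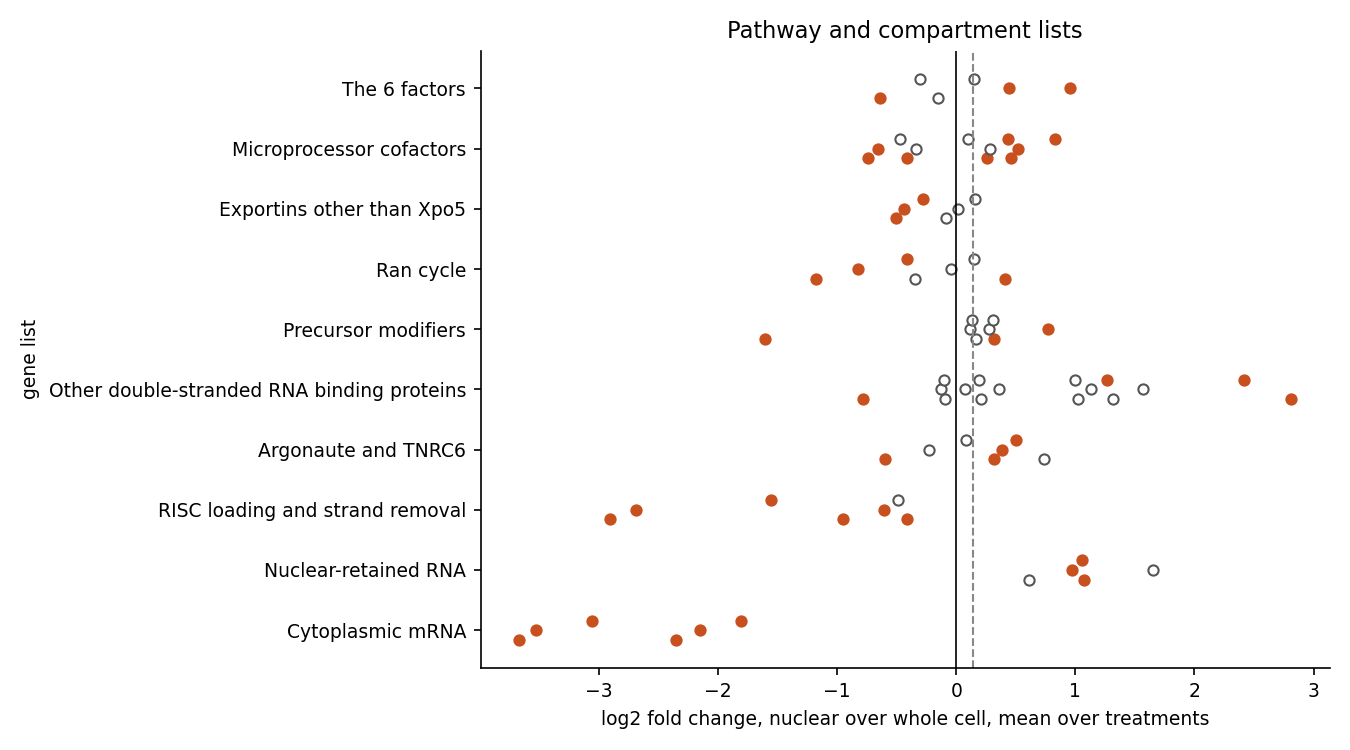
Log2 fold change of nuclear over whole cell samples, mean over treatments (horizontal axis), for the 6 factors and for each tested locus of the pathway and compartment lists (rows). Filled points passed an adjusted p of 0.05 in limma, and the dashed line is the median of all tested loci (0.14). Loci of RISC loading lie to the left and nuclear-retained RNAs to the right.

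The tested loci whose counts ran most like each factor over the 18 samples were taken by Pearson correlation of log2(normalised count + 1), as a description of samples that share libraries and fall into the compartments. For Dgcr8 these were the long non-coding genes Gm26827 (r = 0.99) and Gm26853 (r = 0.98), with medians of 1342 and 3742 in nuclear and of 798 and 1957 in whole cell samples. For Drosha they were the anion exchanger gene Slc4a2 (r = 0.87) and the Hedgehog receptor gene Ptch1 (r = 0.85), and for Xpo5 they were Ldlrad3 (r = 0.93) and Timp3 (r = 0.84). For Dicer1 they were Zcchc2 and the histone deacetylase gene Hdac4 (both r = 0.88). Those of Tarbp2 were the joined locus of Hyal1, Hyal3 and Nat6 (r = 0.87) and Tmem5 (r = 0.86), and those of Prkra were Slc25a24 (r = 0.85) and Zfp64 (r = 0.79). No locus without a symbol lay inside the listed region of any of the 6 factors.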

How the data were processed

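Per the labels and the study's methods, the authors made stranded oligo-dT libraries, trimmed reads with Trimmomatic 0.30 after Bcl2fastq 2.17, aligned them to GRCm38 (mm10) with TopHat2 and assembled loci with Cufflinks. The sources used here name neither the versions of the latter tools nor the annotation. The authors deposited normalised counts, a signal scaled by the size factor of each sample, and FPKM for 168136 loci. Of 635205 normalised counts above 0, 99.9% were whole multiples of 1 read (within 0.02 reads), so reads could be recovered. Columns of the authors' own comparisons were not used.

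Normalised counts were tested two-sided with limma 3.58.1 (R 4.3.3) on log2(normalised count + 1), with a variance trend and 1 model of the 6 groups. It covered 15579 loci with a symbol and a mean of at least 10, with p-values adjusted by Benjamini-Hochberg and called below 0.05. Fold changes on this scale understate those of low loci. Alternatives were other pseudocounts, filters and scalings, FPKM (pseudocount 0.1), sample weights, sample numbers as a block, only the groups compared, samples left out, and edgeR 4.0.16 and DESeq2 1.42.0 on recovered reads. Simulated reads were also run through limma, edgeR and DESeq2, for nuclear against whole cell and for miR-92b against Scr in nuclear samples. The 6 factors and the gene lists were chosen with earlier results of these data known. Named genes were the factors, from each list up to 2 called loci per direction with the largest change between compartments (or, with none called, the tested locus with the highest mean), and the 2 loci most like each factor. Some loci under this rule are not reported here. Ddx17, Ranbp1, Ptprc, Col1a1, Epcam and Aif1 were named after their values were seen.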

Additional observations from a re-analysis of the deposited data

How the results depend on the processing

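The number of the 6 factors called between compartments, 3 as the mean over treatments, was 2 under 17 and 3 under 13 of the 30 alternatives, and Tarbp2 was lost in each of the 17. In control samples it rose from 0 to 2 with only the groups compared and with sample weights, and to 1 with DESeq2, while the share called of all loci rose from 9.85% to 19.9%, 27.7% and 18.1%. In miR-92b samples it went from 1 to 0 on FPKM and with only the groups compared, while that share fell from 13.3% to 9.07% and 3.83%. The cause was not tested. In all other comparisons it stayed at 0. With the sample number as a block, 3 factors were called as the mean over treatments, and the count changed in no other comparison. Deviations of samples of the same number correlated at -0.044 to 0.11 (median 0.0022), so the numbers were not taken to pair the samples.

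Dgcr8 was called between compartments under all 12 other settings and with each of 18 samples left out, at 0.63 to 1.06, Drosha in all but FPKM, and Tarbp2 in 8 of 12 and 5 of 18. For miR-92b against Scr some small changes turned sign. In nuclear samples Drosha was 0.0049 at the same median, 0.025 with quantile normalisation and 0.0055 with edgeR, and Dgcr8 was -0.11 on FPKM and -0.0072 with DESeq2. In whole cell samples Dicer1 was -0.0066 at the same median and -0.038 with quantile normalisation, and Xpo5 was -0.0082 on FPKM and -0.012 with sample weights. With 1 sample left out, nuclear values ran from -0.25 to 0.13 for Drosha, from -0.023 to 0.026 for Dgcr8 and from -0.023 to 0.32 for Prkra, and whole cell values from -0.24 to 0.34 for Dicer1 and from -0.053 to 0.20 for Xpo5.

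Over all tested loci, calls between compartments were 4831 as the mean over treatments (3904 to 5391), 1535 in control (850 to 4315), 805 in Scr (386 to 1288) and 2071 in miR-92b samples (597 to 2914). On FPKM 35.6% of the calls of the mean over treatments were higher in nuclear samples, against 49.2%, and the median of all loci moved by -0.12. For miR-92b against Scr calls were 0 in nuclear samples (0 to 49) and 1 in whole cell samples (0 to 176), and for the other comparisons of treatments and differences at most 69. With 3 samples per group and 80 to 5074 reads per factor, the spread between samples limits what could be detected.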
